A study of Rattus norvegicus with 6 samples.

Results

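The enzymes of glycolysis and of the citric acid cycle were examined in the prelimbic cortex (PL) of rats with neuropathic pain. The set was fixed as 38 genes: 18 of glycolysis, 8 of pyruvate metabolism and 12 of the citric acid cycle. A gene was read from every probe set, a group of short probes for one transcript, that carried this symbol and no other in the platform annotation, and its value was the mean of those probe sets. This gave 34 of the 38 genes, on 53 probe sets, out of 14217 genes on 20826 probe sets in all. Pcx was matched through its current symbol Pc. Gapdh and Pkm were left out because their only probe set outside the array controls carried several symbols, and Dlat and Fh had no probe set under their own symbol.

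The rats were male Sprague Dawley, 6 to 7 weeks old when acquired, and the PL was dissected on the side opposite to the nerve surgery. In the 3 samples of the SNI group, the tibial and common peroneal branches of the left sciatic nerve had been cut 14 days earlier, with the sural branch spared. The other 3 samples are labelled control. The protocols describe a sham operation, with the nerves exposed and left whole, but do not state outright that the arrayed controls were these sham rats. All RNA was hybridized to Affymetrix rat expression arrays. No source used here says whether the samples of a group were separate rats or pools, and the p-values therefore reflect only how far these samples scatter, possibly for technical reasons.

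Glycolysis splits glucose into pyruvate in the cytosol and yields a little ATP. Pyruvate enters mitochondria, where the pyruvate dehydrogenase complex turns it into acetyl-CoA, and the citric acid cycle oxidizes this to supply NADH for respiration. In brain, glucose is the main fuel, and neurons and astrocytes are known to differ in their isozymes, with lactate as a shared intermediate.

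Deposited values are log2 signals relative to each probe set's own median over the 6 samples, so a value of 0 is that median and no absolute level can be read. Differences are those of the SNI group minus the control group from limma, fitted over all 14217 genes, two-sided. Whole-tissue RNA was measured, so fewer cells of a type and less RNA per cell cannot be told apart. The first principal component held 37.0% of the variance and set control samples 1 and 3 (14.3 and 8.82) apart from control sample 2 (−6.07) and the SNI samples (−5.90 to −5.38). The bacterial hybridization controls averaged 0.054 to 0.19 on the SNI arrays and −0.22 to −0.047 on the control arrays. As a covariate these controls follow the groups, and with them in the fit no enzyme of the set had an unadjusted p under 0.05.

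Most of the enzymes were slightly lower in the SNI group. Of the 34 measured, 27 had a difference below 0, which is 79.4%, against 54.8% of all genes. At an unadjusted p under 0.05, 11 enzymes (32.4%) were lower and 0 were higher, where 9.19% of all genes were lower and 3.96% were higher. None passed after Benjamini-Hochberg adjustment over all genes, with a lowest adjusted p = 0.223, and no gene on the array did so in this fit (0%). The SNI samples lay wholly below the control samples for 14 enzymes (41.2%), against 13.7% of all genes, and wholly above them for 1 enzyme, against 6.39%. By single probe sets, 15 of the 53 were lower and 0 higher at an unadjusted p under 0.05 (7.47% and 5.6% of all probe sets), and 20 lay below and 1 above all controls (11.2% and 8.35%). None of the 53 passed adjustment, as 0.0322% of all probe sets did. The differences were small: the 11 enzymes stood at 0.820 to 0.905 of the control level. Taken singly and without adjustment over genes, the 95% confidence intervals of all 34 lay within a linear fold change of 1.5 in either direction. Their bounds reached from −0.47 to 0.26 on the log2 scale.

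**Figure D1:**
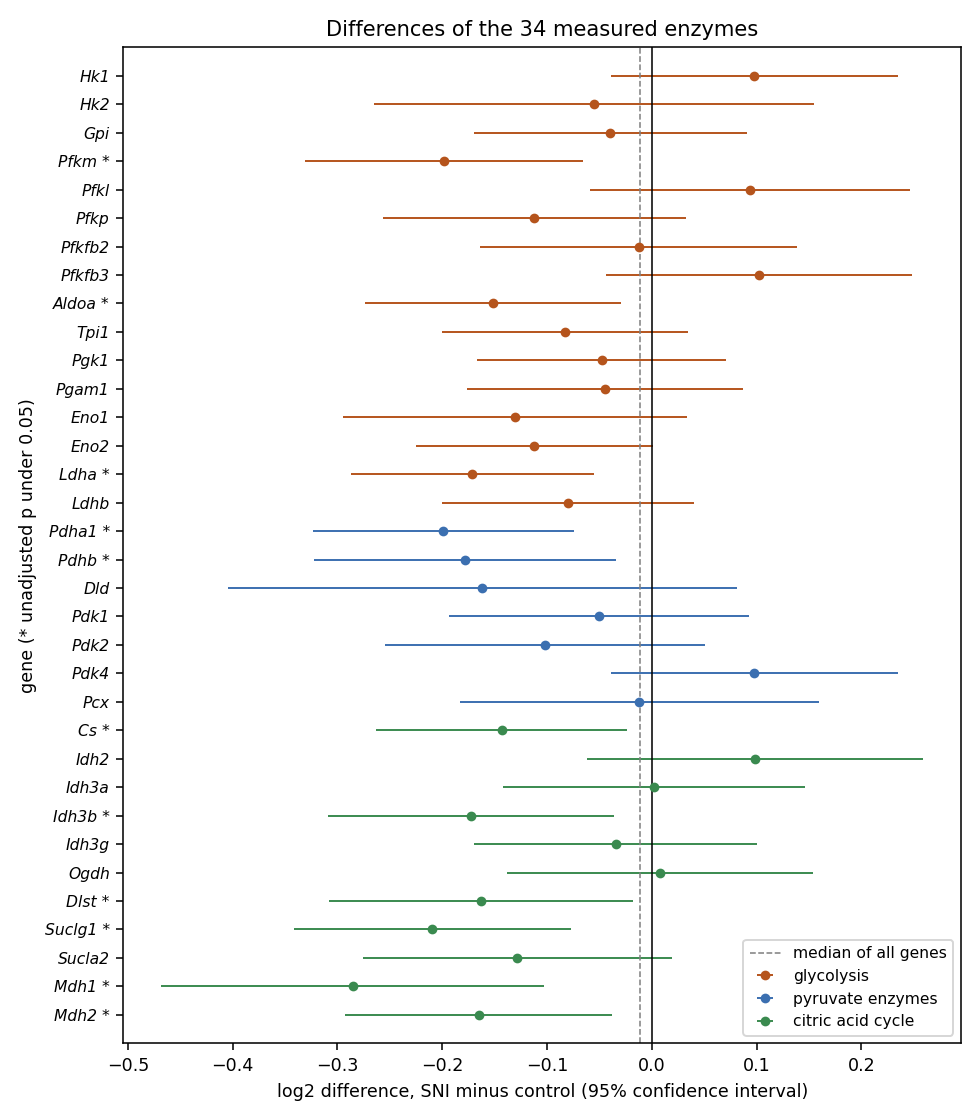
Log2 difference of each measured enzyme, SNI group minus control group (x axis), with its 95% confidence interval from limma; genes run down the y axis in pathway order, coloured by gene group, the dashed line is the median of all genes, and an asterisk marks an unadjusted p under 0.05. The points of 27 of the 34 enzymes lie left of 0, and Mdh1 lies farthest left, at −0.29.

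The median difference was nearer to 0 in glycolysis than in pyruvate metabolism and the citric acid cycle. The median difference was −0.068 over 16 glycolytic enzymes and −0.14 over the 18 enzymes of the other group, with −0.10 for 7 enzymes of pyruvate metabolism and −0.14 for 11 of the cycle, beside −0.011 over all genes. In glycolysis 3 of 16 (18.8%) were lower at an unadjusted p under 0.05, and in the other group 8 of 18 (44.4%). The difference between the 2 medians was 0.068. No test was made of it, because the genes were chosen with results of these data known. It was 0.020 without control sample 3 and 0.038 without control sample 1. Without both of these samples, an alternative added once the data had been seen, it turned to −0.0056.

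Per sample, glycolytic enzymes had a median of −0.051, −0.00066 and −0.027 in SNI samples 1, 2 and 3, against 0.025, 0.048 and 0.044 in control samples 1, 2 and 3. For pyruvate metabolism it was −0.041, −0.061 and −0.036 in the SNI samples and 0.068, 0.0092 and 0.030 in the control samples. For the cycle it was −0.088, −0.027 and −0.060 in the SNI samples and 0.082, 0.030 and 0.060 in the control samples. In every gene group the 3 SNI samples were below the 3 control samples. SNI sample 2 was nearest to the controls in glycolysis and in the cycle, and control sample 2 was nearest to the SNI samples in pyruvate metabolism and the cycle.

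**Figure D2:**
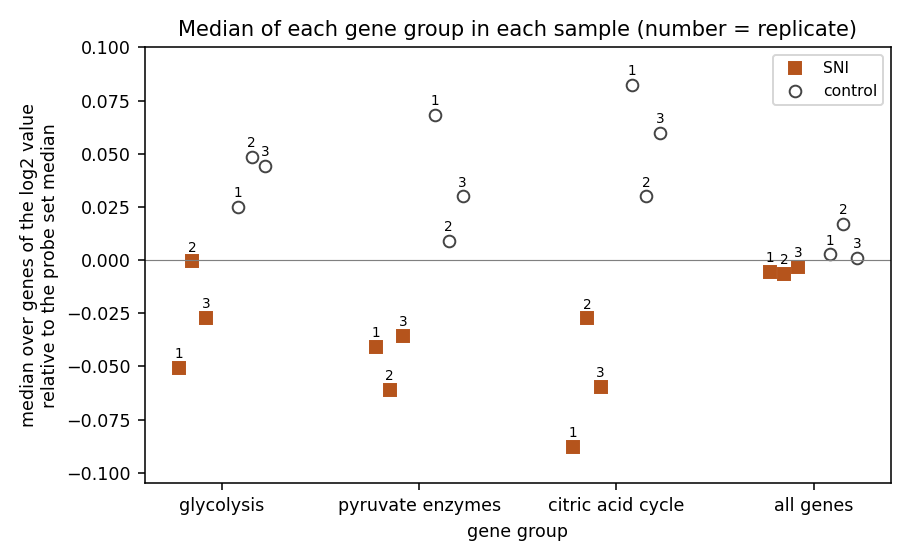
Median over the genes of each group (x axis) of the log2 value relative to the probe set median (y axis), for each sample; filled squares are SNI samples, open circles control samples, and the number beside a point is the replicate number. In the cycle the SNI samples span −0.088 to −0.027, under the control samples at 0.030 to 0.082. For all genes the 6 samples span −0.0067 to 0.017. Normalization and centring hold a median over all genes near 0, so this span is no yardstick for the small groups.

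In the first steps of glycolysis, hexokinases trap glucose as glucose 6-phosphate. Hk1, the main brain hexokinase, had a difference of 0.098 (SE 0.060), and Hk2, an inducible form, one of −0.055 (SE 0.091). Neither passed at an unadjusted p under 0.05 with all 6 samples. Hk1 was the 1 enzyme of the set that was higher at that threshold without control sample 2, at 0.14. With all 6 samples, its 2 probe sets were at 0.011 and 0.18, both with overlapping groups. The array's own control probe sets for rat hexokinase, left out of the gene values, were lower, at −0.17, −0.26 and −0.11. Their groups overlapped as well, and their labels do not say which hexokinase gene they read. Gpi, the isomerase that follows, was at −0.040 (SE 0.056).

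Phosphofructokinase, the committed and most regulated step, has 3 types of subunit. Pfkm, the muscle-type subunit, had values of −0.11, −0.12 and −0.039 in the SNI samples, against 0.058, 0.18 and 0.094 in the control samples. The groups did not overlap, and the difference was −0.20 (SE 0.058, limma adjusted p = 0.236). All 3 of its probe sets were below 0, at −0.35, −0.14 and −0.10, and the third had overlapping groups. The other subunits had overlapping groups, with Pfkp, the platelet type, at −0.11 (SE 0.062) and Pfkl, the liver type, at 0.094 (SE 0.066). The bifunctional enzymes that set the level of the activator fructose 2,6-bisphosphate lay at 0.10 for Pfkfb3 (SE 0.063) and −0.013 for Pfkfb2 (SE 0.065). Pfkfb3 was the single enzyme of the set with every SNI sample (0.0092, 0.13 and −0.0050) above every control sample (−0.029, −0.13 and −0.012). The groups were narrowly apart for the mean of its probe sets, while each probe set alone had overlapping groups. Pfkfb3 did not pass at an unadjusted p under 0.05. The 4 probe sets of Pfkfb2 had both signs, from −0.12 to 0.046.

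Aldoa, the aldolase that cuts the 6-carbon sugar into 3-carbon units, had values of −0.10, −0.044 and −0.045 in the SNI samples and 0.044, 0.12 and 0.10 in the control samples, without overlap. Its difference was −0.15 (SE 0.053, limma adjusted p = 0.297). Tpi1, which interconverts the triose phosphates, had a difference of −0.083 (SE 0.051), with the groups apart but an unadjusted p above 0.05. The array's own control probe sets for rat GAPDH were, like those for hexokinase, left out of the gene values and of the limma fit. They were at −0.16, −0.23 and −0.23, each with every SNI sample below every control sample, as for 11.2% of all probe sets.

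In the later steps of glycolysis, Pgk1, Pgam1 and Eno1 had differences of −0.048, −0.045 and −0.13 with overlapping groups. The probe sets of Pgk1, phosphoglycerate kinase, had both signs, at −0.16, −0.075 and 0.093. Eno2, the neuron-specific enolase, was at −0.065, −0.045 and −0.063 in the SNI samples, against 0.071, 0.045 and 0.047 in the control samples. The groups of Eno2 lay apart with little spread within either, and the difference was −0.11 (95% confidence interval −0.23 to 0.0012), so it did not pass. The unadjusted p of Eno2 was 0.052 in limma, and 0.00041 with the methods' t-test, an alternative that uses the gene's own spread alone.

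Lactate dehydrogenase interconverts pyruvate and lactate. Ldha, the subunit that favours lactate production, had values of −0.075, −0.10 and −0.068 in the SNI samples and 0.082, 0.068 and 0.12 in the control samples. The groups did not overlap, and the difference was −0.17 (SE 0.050, limma adjusted p = 0.237). Ldhb, the subunit that favours lactate use, had a difference of −0.080 (95% confidence interval −0.20 to 0.040), with the groups apart. The difference between Ldha and Ldhb was not tested.

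Promoter windows of 300 bases, 250 before and 50 after the annotated start, were read from RefSeq on the build GRCr8 for 31 of the 34 measured genes. Shown here, 5′ to 3′, are the windows of the glycolytic and the mitochondrial enzymes with the smallest p, since these genes were lower together. Capitals mark the core of the hypoxia-inducible factor motif, ACGTG or GCGTG, on either strand.
Pfkm, chr7:131113849-131114148, plus strand: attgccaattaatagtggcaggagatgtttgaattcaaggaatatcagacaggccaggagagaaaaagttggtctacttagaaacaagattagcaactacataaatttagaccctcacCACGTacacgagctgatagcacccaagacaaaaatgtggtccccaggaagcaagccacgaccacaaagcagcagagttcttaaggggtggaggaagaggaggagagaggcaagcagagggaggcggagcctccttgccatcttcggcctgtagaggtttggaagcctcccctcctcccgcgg
Ldha, chr1:106507842-106508141, plus strand: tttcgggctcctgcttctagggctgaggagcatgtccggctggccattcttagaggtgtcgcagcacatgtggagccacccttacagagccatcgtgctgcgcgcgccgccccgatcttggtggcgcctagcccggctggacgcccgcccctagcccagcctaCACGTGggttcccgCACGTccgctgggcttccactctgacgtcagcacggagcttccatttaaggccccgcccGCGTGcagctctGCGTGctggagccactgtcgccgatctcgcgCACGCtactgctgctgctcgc
Pdha1, chrX:38508908-38509207, plus strand: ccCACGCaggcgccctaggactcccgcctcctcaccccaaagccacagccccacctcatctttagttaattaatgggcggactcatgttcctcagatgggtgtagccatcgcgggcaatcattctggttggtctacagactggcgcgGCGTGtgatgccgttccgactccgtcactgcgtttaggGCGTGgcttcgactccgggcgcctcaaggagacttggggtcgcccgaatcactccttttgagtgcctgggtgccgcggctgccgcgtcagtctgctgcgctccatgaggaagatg
Suclg1, chr4:106866079-106866378, plus strand: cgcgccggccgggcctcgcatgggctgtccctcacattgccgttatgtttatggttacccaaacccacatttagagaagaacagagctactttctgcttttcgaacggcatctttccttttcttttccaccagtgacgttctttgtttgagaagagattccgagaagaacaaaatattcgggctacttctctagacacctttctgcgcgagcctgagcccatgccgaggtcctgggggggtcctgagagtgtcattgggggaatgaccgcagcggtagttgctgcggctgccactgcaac

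Counting both strands, the core occurred 6 times in the window of Ldha, 3 in that of Pdha1, 1 in that of Pfkm and 0 in that of Suclg1. It was present in 10 of 15 glycolytic promoters and 8 of 16 promoters of the other group, against 42.9% of 27457 genes in the table, with 1 promoter each. Among the enzymes with an unadjusted p under 0.05 it was present in 5 of 11, and among the remaining ones in 13 of 20. The palindrome CACGTG, which contains the core, was in 5 of 31 windows (16.1%, against 6.65% of all), and the cAMP response motif TGACGTCA in 3 of 31 (9.68%, against 1.91% of all), that of Ldha among them. The GC box GGGCGG was also more frequent, in 18 of 31 (58.1%, against 34.9% of all), and TATAAA less so, in 1 of 31 (3.23%, against 14.3%). These matches are descriptions of the windows and not of factor binding.

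The pyruvate dehydrogenase complex links glycolysis to the cycle. Pdha1, the catalytic subunit that kinases switch off, had values of −0.13, −0.089 and −0.048 in the SNI samples and 0.15, 0.076 and 0.10 in the control samples. The groups did not overlap, and the difference was −0.20 (SE 0.054, limma adjusted p = 0.223). Its 2 probe sets were at −0.30 and −0.098, each with the groups apart. Pdhb, the partner subunit, had values of −0.099, −0.070 and −0.043 in the SNI samples, against 0.068, 0.043 and 0.21 in the control samples. Its difference was −0.18 (SE 0.062, adjusted p = 0.297), with control sample 3 far above the rest. Dld, the dehydrogenase that the complex shares with 2-oxoglutarate dehydrogenase, was at −0.16 (SE 0.11). For Dld, control samples 1 and 3 (0.25 and 0.32) were high and control sample 2 (−0.10) was the lowest of all 6 samples, so the groups overlapped.

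The kinases that inhibit the complex had differences of both signs. Pdk1, Pdk2 and Pdk4 had differences of −0.050, −0.10 and 0.098, with overlapping groups and no unadjusted p under 0.05. One of the 2 probe sets of Pdk2 was at −0.20, with the groups apart, and the other at −0.0076, with overlapping groups. Those of Pdk4 were at 0.16, with every SNI sample above every control sample, and at 0.037, with overlapping groups. Pcx, which makes oxaloacetate from pyruvate and is known as an astrocyte enzyme in brain, was at −0.012 (95% confidence interval −0.18 to 0.16).

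In the citric acid cycle, Cs, which joins acetyl-CoA and oxaloacetate, had values of −0.050, −0.066 and −0.061 in the SNI samples and 0.047, 0.072 and 0.13 in the control samples, without overlap. The difference of Cs was −0.14 (SE 0.052, limma adjusted p = 0.312). Of its 4 probe sets, 3 were at −0.27, −0.27 and −0.12 and 1 at 0.093.

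Isocitrate dehydrogenase 3, the NAD-dependent form, is built from several subunits, whose differences from each other were not tested. Idh3b had values of −0.11, −0.027 and −0.11 in the SNI samples, against 0.082, 0.027 and 0.16 in the control samples. Its groups did not overlap, and its difference was −0.17 (SE 0.059, limma adjusted p = 0.291). Idh3a, the catalytic subunit, was at 0.0020 (95% confidence interval −0.14 to 0.15) and Idh3g at −0.035 (−0.17 to 0.10). Idh2, the NADP-dependent mitochondrial form, was at 0.098 (SE 0.070) with overlapping groups.

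Of the 2-oxoglutarate dehydrogenase complex, the first component Ogdh was at 0.0078 (95% confidence interval −0.14 to 0.15). Its partner Dlst had values of −0.11, −0.014 and −0.064 in the SNI samples and 0.10, 0.18 and 0.014 in the control samples. The groups of Dlst were narrowly apart, and the difference was −0.16 (SE 0.063, limma adjusted p = 0.331). Succinyl-CoA ligase makes GTP or ATP directly. Its shared subunit Suclg1 had values of −0.16, −0.13 and −0.060 in the SNI samples, against 0.16, 0.063 and 0.060 in the control samples. The difference of Suclg1 was −0.21 (SE 0.057, adjusted p = 0.225), without overlap. Sucla2, the ATP-forming partner, was at −0.13 (SE 0.064) with overlapping groups.

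Of the malate dehydrogenases, Mdh1 had the lowest difference of the set, and Mdh2 was lower by less than several other enzymes. Mdh1, the cytosolic enzyme, had values of −0.038, −0.13 and −0.11 in the SNI samples and 0.026, 0.29 and 0.26 in the control samples. The groups did not overlap, although control sample 1 was close to the SNI samples. The difference of Mdh1 was −0.29 (SE 0.079, limma adjusted p = 0.229), or 0.820 of the control level. Its probe sets were at −0.23, with the groups apart, and −0.34, with overlapping groups. Mdh2, the mitochondrial enzyme, had values of −0.10, −0.046 and −0.048 in the SNI samples, against 0.095, 0.046 and 0.16 in the control samples, without overlap. Its difference was −0.17 (SE 0.055, adjusted p = 0.281).

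**Figure D3:**
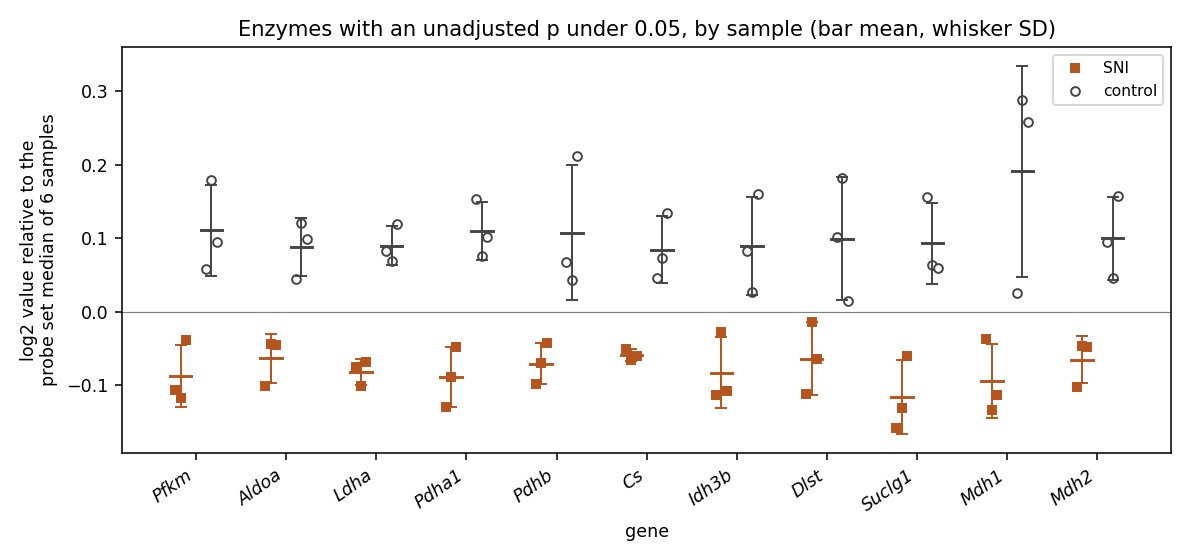
Log2 value of each sample relative to the probe set median (y axis) for the 11 enzymes with an unadjusted p under 0.05 (x axis); filled squares are SNI samples and open circles control samples, with the mean as a bar and the SD as whiskers (n = 3 each). Every SNI sample lies below every control sample; Mdh1 is widest in the control group, between 0.026 and 0.29.

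Single samples bore on these counts. When 1 sample was left out in turn, 5 of the 11 enzymes kept an unadjusted p under 0.05 in all 6 fits: Pfkm, Ldha, Pdha1, Suclg1 and Mdh1. Without SNI sample 1, which was the lowest SNI sample for 7 of the 11, 5 enzymes (14.7%) were lower, against 5.69% of all genes. Without control sample 3, 7 enzymes (20.6%) were lower, against 6.96%. The control samples were also the more variable, with a larger SD than the SNI samples for 26 of the 34 enzymes (76.5%), against 70.6% of all genes.

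Genes that feed these pathways were listed as well. Among 13 measured isozymes and relatives of glycolytic enzymes, 0 were lower and 1 was higher at an unadjusted p under 0.05, and the shares over all genes, 9.19% lower and 3.96% higher, stand as background for this and the following lists. That gene was Aldoc, the brain aldolase known from astrocytes, with 0.028, 0.072 and 0.034 in the SNI samples and −0.085, −0.028 and −0.24 in the control samples. Its difference was 0.16 (SE 0.067, limma adjusted p = 0.356), opposite in sign to Aldoa; the difference between both aldolases was not tested. Among 25 further genes of pyruvate metabolism and the cycle, 6 were lower and 1 was higher. The lower ones were Sdhd (−0.18) and Sdhb (−0.13), subunits of succinate dehydrogenase, Pdk3 (−0.30), the malic enzymes Me1 (−0.17) and Me3 (−0.22), and Mpc2 (−0.14), a subunit of the mitochondrial pyruvate carrier. The higher one was Pdpr (0.16), a regulatory subunit of pyruvate dehydrogenase phosphatase.

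Of 11 measured carriers of glucose and monocarboxylates and their partners, 2 were lower and 1 was higher. Slc2a3, the neuronal glucose transporter GLUT3, had values of −0.20, −0.052 and −0.025 in the SNI samples, against 0.21, 0.025 and 0.060 in the control samples. Its difference was −0.19 (SE 0.074, limma adjusted p = 0.334). Slc2a1, the transporter GLUT1 of endothelium and astrocytes, had values of 0.031, 0.032 and 0.083 in the SNI samples and −0.031, −0.13 and −0.13 in the control samples. Its difference was 0.15 (SE 0.055, adjusted p = 0.328). The second lower gene was Emb (−0.26), a partner of monocarboxylate transporters. Neither transporter overlapped between the groups, and they lay on opposite sides.

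The malate-aspartate shuttle, which carries reducing equivalents of cytosolic NADH into mitochondria and includes Mdh1 and Mdh2, had further members that were lower. Slc25a12, the aspartate-glutamate carrier of neurons, had values of −0.25, −0.14 and −0.16 in the SNI samples and 0.17, 0.14 and 0.14 in the control samples. Its difference was −0.33 (SE 0.055, limma adjusted p = 0.143). Got1, the cytosolic aspartate aminotransferase, was at −0.29 (SE 0.080) and Slc25a11, the malate carrier, at −0.18 (SE 0.051), both without overlap. The mitochondrial aminotransferase Got2 was at −0.027 and the second carrier Slc25a13 at 0.18, neither with an unadjusted p under 0.05. Of 8 genes listed for NADH shuttles, 4 were lower, 0 were higher and all were measured. The remaining lower gene was Gpd1l (−0.17), which is not part of the malate-aspartate shuttle. Gpd1 and Gpd2, of the glycerol phosphate shuttle, were at −0.016 and −0.060 with overlapping groups.

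**Figure D4:**
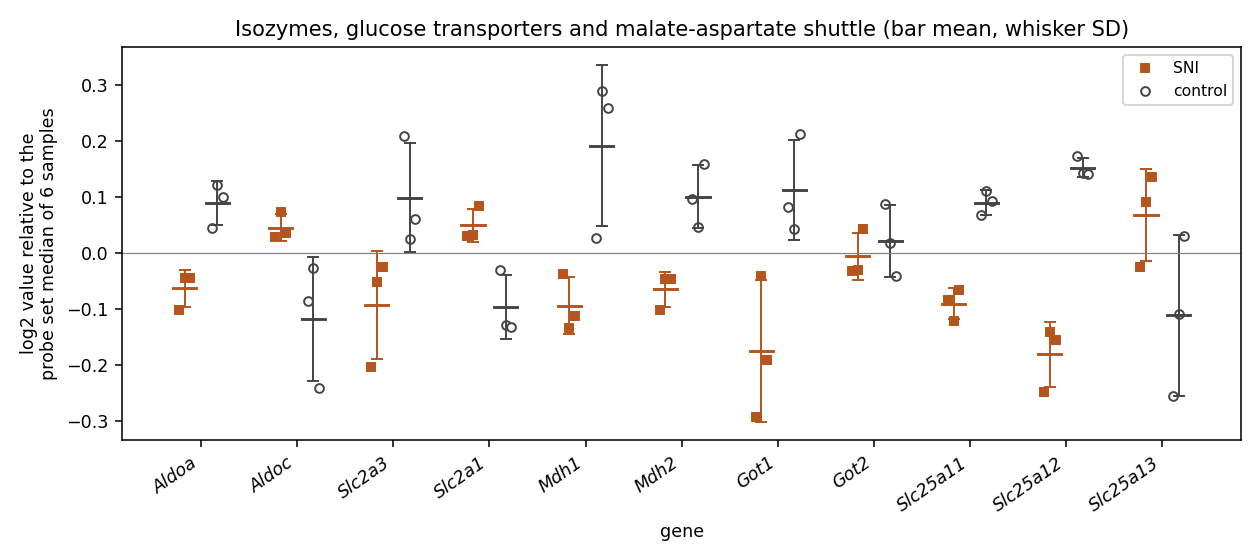
Log2 value of each sample relative to the probe set median (y axis) for aldolase isozymes, glucose transporters and genes of the malate-aspartate shuttle (x axis); filled squares are SNI samples and open circles control samples, with the mean as a bar and the SD as whiskers (n = 3 each). Every SNI sample lies above the control samples for Aldoc and Slc2a1, and below them for the rest except Got2 and Slc25a13, whose groups overlap; the difference of Slc25a13 is 0.18.

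Marker lists of 8 cell types were read beside the enzymes. Of 12 neuronal markers, Syt1 (−0.38) and Snap25 (−0.13) were lower and Camk2a (0.29) and Map2 (0.23) higher at an unadjusted p under 0.05, and the list mean was −0.081 to 0.00087 in the SNI samples and −0.038 to 0.12 in the control samples. Of 12 microglial markers, 8 were higher and 0 lower, with a list mean of 0.060 to 0.15 in the SNI samples and −0.16 to −0.070 in the control samples. Of 9 measured astrocyte markers 1 was higher, Aldoc, with a list mean of 0.0015 to 0.033 in the SNI samples and −0.19 to 0.0046 in the control samples. Of 9 measured oligodendrocyte markers 1 was lower, and the list mean ran from −0.18 to 0.029 in the SNI samples and from −0.20 to 0.31 in the control samples. Of 5 measured markers of oligodendrocyte precursors, all 5 had every SNI sample above every control sample, against 6.39% of all genes. Of these 5, 2 had an unadjusted p under 0.05 (Cspg4 at 0.29 and Pdgfra at 0.24). The precursor list mean was 0.046 to 0.13 in the SNI samples and −0.10 to −0.058 in the control samples. All 7 measured endothelial markers had a difference above 0, as did 6432 of all 14217 genes. Cldn5 (0.22) and Slco1a4 (0.24) were higher at an unadjusted p under 0.05. The endothelial list mean was 0.035 to 0.072 in the SNI samples and −0.18 to −0.031 in the control samples, on the same side as Slc2a1. Of 5 measured blood markers, Hbb (0.49) and Alas2 (0.44) were higher, with a list mean of 0.078 to 0.23 in the SNI samples and −0.15 to −0.030 in the control samples. Of 6 markers of pericytes and smooth muscle 1 was higher, Cspg4, with a list mean of −0.0016 to 0.14 in the SNI samples and −0.22 to 0.25 in the control samples. The list means of both groups lay apart for microglia, oligodendrocyte precursors, endothelium and blood, and overlapped for neurons, astrocytes, oligodendrocytes and pericytes. The part of these cell types in the differences of the enzymes was not tested.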

How the data were processed

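The authors hybridized RNA to GeneChip Rat Genome 230 2.0 arrays, processed the signals with RMA, a log2 transformation and quantile normalization. The deposited log2 values are also centred on each probe set's median over the 6 samples (0 within 4.78e-07), a step the sources used here do not describe, so no filter on dim probe sets was possible. The authors' software versions: not given in the sources used here. After 57 array controls were set aside, gene values were means of the probe sets with 1 symbol, and probe sets with several (436) or none (9780) were not used. Genes were tested with lmFit and eBayes in limma 3.58.1 (R 4.3.3), without covariates, and p-values were adjusted over all 14217 genes. The step was tested on simulated data. With 3 samples against 3, an exact permutation test cannot give a p under 0.1, and the number of arrays limits the precision. Values of every sample are given for enzymes with an unadjusted p under 0.05, and enzymes or related genes beyond this rule were chosen after their values were seen. Members and lists were chosen with earlier results of these data known. Alternatives were repeated quantile normalization, aligned array medians, the replicate number as a block, hybridization controls as a covariate, medians of probe sets, single probe sets, robust moderation, the methods' t-test, values relative to the control mean, other thresholds, and each sample left out. Same-numbered samples did not deviate together (correlations of −0.022, −0.0074 and −0.045 across genes). Plots used matplotlib 3.10.9 under Python 3.11.15.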

Additional observations from a re-analysis of the deposited data

How the results depend on the processing

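The number of enzymes with an unadjusted p under 0.05 was 11 and became 0 once the hybridization controls entered as covariate, where 628 of all genes were lower and 576 higher. It was 5 at a threshold of 0.01, where the share over all genes is not given here, and 5 to 14 when 1 sample was left out. The 5 came without SNI sample 1, where 5.69% of all genes were lower. The 14 came without control sample 2, with 13 lower and 1 higher, where 14.6% of all genes were lower and 1213 genes were higher. With the hybridization controls as covariate, the median was −0.020 for glycolysis and −0.10 for pyruvate metabolism and the cycle. When 1 sample was left out, these medians were −0.083 to −0.060 and −0.15 to −0.10, and the difference between them was 0.020 to 0.074. Without both control samples 1 and 3, the median of pyruvate metabolism and the cycle was −0.070 and the difference between the medians turned to −0.0056. The cause was not tested. With the replicate number as a block, 10 enzymes were lower at an unadjusted p under 0.05, against 7.46% of all genes, and Cs was the one lost (0.062). The numbers do not pair the samples. Array medians, repeated quantile normalization, robust moderation and centring on the controls left the count at 11, where 8.56% to 9.19% of all genes were lower. Medians of probe sets gave 12 lower, against 9.19% of all genes, and the methods' t-test 14 lower, against 8.9%. Groups that do not overlap gave 15, of which 14 were lower and 1 higher, against 13.7% and 6.39% of all genes. No enzyme passed an adjusted p of 0.05 in any of these fits over genes.

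Signs turned for some enzymes, most of them near 0 but also for Eno1 (−0.13 with all samples and no covariate) and Dld (−0.16). With the covariate they turned for Hk2 (0.021), Pfkl (−0.0016), Pfkfb2 (0.20), Pgk1 (0.0045), Eno1 (0.14), Pcx (0.21), Idh3a (−0.063), Idh3g (0.095) and Ogdh (−0.19). With repeated quantile normalization Idh3a was at −0.0075. When 1 sample was left out, Hk2 ranged from −0.11 to 0.046, Pfkfb2 from −0.073 to 0.022, Pcx from −0.066 to 0.060, Idh3a from −0.047 to 0.035, Idh3g from −0.069 to 0.0078 and Ogdh from −0.032 to 0.050. Without both control samples 1 and 3, Dld was at 0.096 and Pdk1 at 0.011.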

Other observations

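Beyond glycolysis and the cycle, 2 of 9 measured genes of the pentose phosphate pathway were lower at an unadjusted p under 0.05 and 0 were higher, beside 9.19% lower and 3.96% higher over all genes. Taldo1, transaldolase, had a log2 difference of −0.22 (SE 0.055, limma adjusted p = 0.216), and Prps1, which makes the precursor of nucleotides from ribose phosphate, one of −0.23 (SE 0.070). The groups did not overlap for either gene. Of 17 measured genes of glycogen metabolism, 1 was lower and 1 was higher, near those shares over all genes. They were Pygl, the liver glycogen phosphorylase (−0.25, with overlapping groups), and Pygb, the brain form (0.15).

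Among 26 regulators of these pathways, 5 were lower and 2 were higher at an unadjusted p under 0.05, against 9.19% lower and 3.96% higher over all genes. Tfam, the mitochondrial transcription factor, was at −0.21 (SE 0.050, limma adjusted p = 0.210), Max at −0.22 and its partner Myc at −0.20. Epas1, a hypoxia-inducible factor subunit, was at 0.17 and Ppargc1b, a coactivator of mitochondrial genes, at 0.16. Its relative Ppargc1a was lower (−0.17), as was Egln3 (−0.30), a prolyl hydroxylase that acts on hypoxia-inducible factors, both with overlapping groups. Hif1a was at −0.0093 and Nrf1 at −0.0031, with overlapping groups. None passed adjustment over all genes.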
